A study of Mus musculus with 6 samples.

Results

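The family 25 solute carriers of mouse liver, whose genes carry symbols that start with Slc25a, were followed across refed and fasted liver. Members were found by symbol in the deposited expression table. This gave 37 genes of 10947 named genes, each represented by its RefSeq transcript with the highest mean over the 6 libraries. The refed group, libraries 5, 7 and 8, consisted of male wild-type C57BL/6J mice, an inbred laboratory strain, 8 weeks old. They fasted for 12 h by day from 10 am and were then given food that was 69% sucrose and 10% fat during the 12 h after 10 pm. The fasted group, libraries 1, 3 and 4, matched in strain, sex and age, had food withdrawn at 10 pm for 12 h. Tissue of both groups was taken at 10 am. The comparison asks how liver transcripts differ between a night of sucrose feeding and a night of fasting. The refed mice also went through a daytime fast, so feeding, diet and the earlier fast cannot be told apart.

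Most family 25 proteins sit in the inner mitochondrial membrane and swap small molecules between the matrix and the cytosol. The inner membrane is otherwise closed to nucleotides, carboxylates, amino acids, coenzymes and acylcarnitines, so these carriers link the matrix pathways of the liver to the cytosolic ones. In hepatocytes they take part in citrate export for fat synthesis, acylcarnitine import for fat oxidation, and the ornithine, citrulline, glutamate and aspartate exchanges of the urea cycle.

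The unit throughout is RPKM, a read count divided by transcript length and by a library total, so a level per length. Each value was tested as log2(RPKM + 1) with limma, a linear model with variances shared across genes, and a call means a Benjamini-Hochberg adjusted p under 0.05 over all 10890 genes tested. All 37 carriers had a mean of at least 0.5 RPKM and were tested. The table lists a transcript only if its highest library reaches 1 RPKM, and 10 further carriers of the lists used here, among them Slc25a18, Slc25a24 and Slc25a36, were not analysed here. Over the genes the authors called, read totals ran from 26237934 for refed 8 to 33219013 for refed 7, a part of each library. The labels do not state that every library came from its own mouse, so the p-values reflect library spread that may be technical. The hepatocyte marker Alb did not pass (limma adjusted p = 0.83), while Cps1 and Tdo2 of the 5 hepatocyte markers were lower, and no lymphocyte or muscle marker of the lists was among the genes of the table. Of 4 cholangiocyte markers, Krt19, Krt7 and Sox9 were higher in refed liver and Epcam did not pass, with a summed level of 6.18 to 7.49 RPKM in refed and 3.25 to 3.80 RPKM in fasted libraries, and none was at 0 in any library. With libraries centred on their medians Krt7 did not pass (adjusted p = 0.065), nor did it with quantile normalization (0.1). By limma, 0 of the 6 Kupffer, 5 endothelial, 4 stellate, 6 erythroid, 2 neutrophil and 1 adipocyte markers measured passed, and 1 of them, an endothelial one, had an unadjusted p under 0.05. The adipocyte marker, Cfd, passed with quantile normalization (limma adjusted p = 0.039) and not with centring (0.062). The hepatocyte marker Apoa1 did not pass (limma adjusted p = 0.052), but did with centring (0.029) and not with quantile normalization (0.82). The summed Kupffer level was 37.4 to 40.4 RPKM in refed and 24.2 to 72.9 RPKM in fasted libraries, and fasted 1 was its highest library. Each of the 6 Kupffer markers was higher in fasted 1 than in fasted 3 and fasted 4. The part of other cell types in the results was not tested, and in whole tissue fewer cells of a type and less RNA per cell cannot be told apart.

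Of the 37 carriers, 18 were lower and 6 were higher in refed liver, and 13 did not pass. The 24 called make up 64.9% of the carriers, against 42.2% of all genes tested. Of the carriers 48.6% were called lower and 16.2% higher, against 15.7% lower and 26.4% higher over all genes tested. Of the calls over all genes 62.7% were on the higher side, against 49.1% after centring libraries on their medians and 48.6% with quantile normalization. Under either of these scalings 20 carriers were lower and 5 higher. Of the 10890 genes tested, 2261 were lower and 2183 higher with centring, and 2289 lower and 2166 higher with quantile normalization. The median log2 fold change, refed over fasted, was -0.36 over the carriers and 0.10 over all genes. Called or not, the refed libraries lay wholly above the fasted ones in 8 of the 37 carriers and wholly below in 20. Of all genes tested 55.4% were separated in this way (34.8% with the refed libraries above and 20.6% with them below). The 24 called carriers were all separated, which passing a test on the same libraries makes likely. An absolute log2 fold change of at least 1 was reached by 10 called carriers, and by 6.63% of all genes. Slc25a34 had the strongest fall and Slc25a44 the strongest rise. The labels do not say if counting used the strand, so the 10 carriers whose span overlaps another gene in the RefSeq gene table are uncertain to that extent. They are Slc25a3, Slc25a11, Slc25a12, Slc25a16, Slc25a21, Slc25a25, Slc25a26, Slc25a37, Slc25a39 and Slc25a44.

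**Figure D1:**
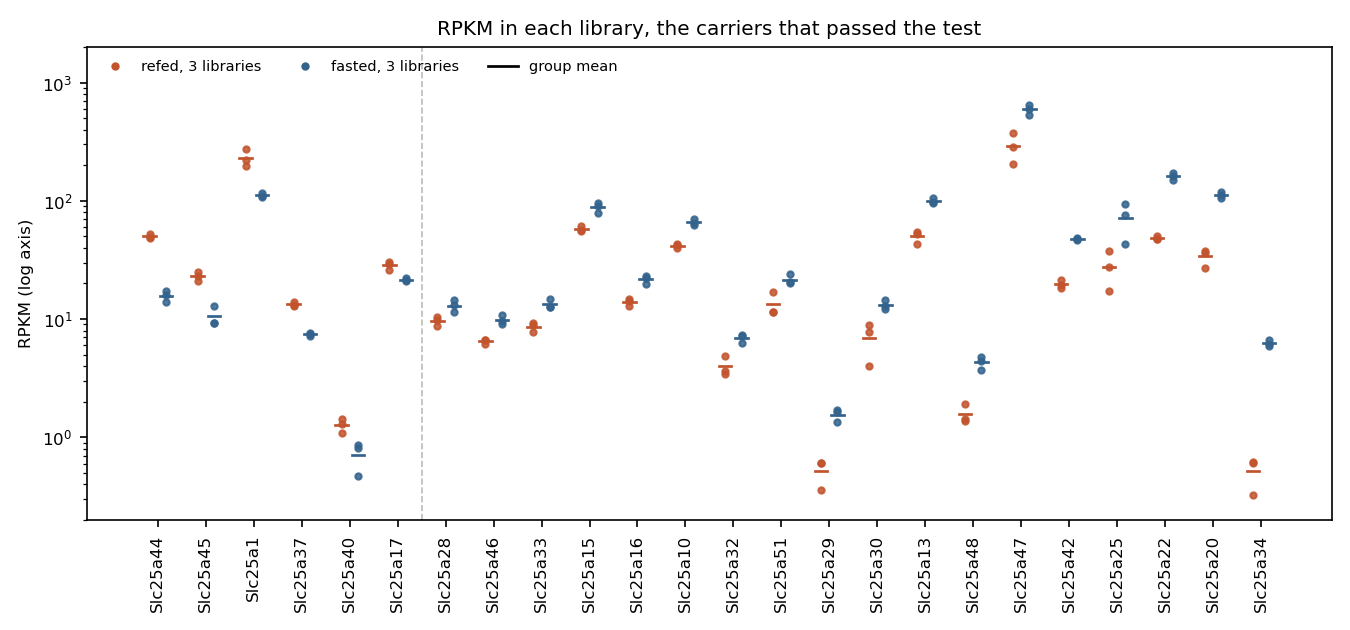
RPKM on a log axis in each library for the 24 carriers that passed the test, refed libraries to the left of fasted ones for each gene, points for libraries and short lines for group means. The 6 higher carriers stand left of the dashed line. In none of the 24 do the groups overlap, which passing a test on the same libraries makes likely.

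Promoter sequences were read from 250 bases before to 50 after a gene's start, as given by RefSeq for GRCm38.p6, a later mouse build than that of the deposited coordinates. Of the 37 carriers, 29 had a window, 38 windows in all. Those without one included Slc25a26, Slc25a27, Slc25a32, Slc25a37, Slc25a44, Slc25a46 and Slc25a51. The E-box CACGTG, read on both strands as the same letters and bound by several basic helix-loop-helix factors, stood in 6 of 38 windows, and in 7.15% of all 32851 windows. Of carriers with a window, it was present in 1 of 4 higher ones, Slc25a1, and 3 of 15 lower ones, Slc25a13, Slc25a15 and Slc25a33. It was also in 1 of 10 that did not pass, Slc25a14. Overlapping windows of Slc25a14 hold the same E-box, which thus counts more than once among the 6. The GC box CCGCCC on either strand was in 32 of the 38 windows and in 35.7% of all windows. Among carriers with a window, 4 of 4 higher, 13 of 15 lower and 8 of 10 that did not pass had it. Overlapping windows of Slc25a14 and of Slc25a23 hold the same GC boxes, which thus count more than once among the 32. Neither the forkhead letters GTAAACA, the direct repeat of AGGTCA with 1 base between, the D-box letters TTATGTAA and TTATGCAA nor the sterol element TCACNCCAC were in any of the 38 windows, and they were in 3.65%, 0.0396%, 0.938%, 0.743% and 1.24% of all windows. Windows of 2 higher and 4 lower carriers are shown so that the letters near the start of strongly changed carriers, Slc25a1, Slc25a45, Slc25a20 and Slc25a34, can be set beside the E-box windows of Slc25a13 and Slc25a33. The E-box began 239 bases before the start in Slc25a1, 125 in Slc25a13 and 8 in Slc25a33. Letters are 5′ to 3′ on the gene's strand, with E-boxes and GC boxes in capitals, GC boxes also in their reverse form GGGCGG.
Slc25a1, chr16:17928170-17928469, minus strand: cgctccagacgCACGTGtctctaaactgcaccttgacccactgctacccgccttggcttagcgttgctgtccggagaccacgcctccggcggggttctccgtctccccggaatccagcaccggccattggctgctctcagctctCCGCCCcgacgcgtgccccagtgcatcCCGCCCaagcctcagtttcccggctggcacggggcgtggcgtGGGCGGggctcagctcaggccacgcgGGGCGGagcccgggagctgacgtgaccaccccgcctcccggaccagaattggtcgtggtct
Slc25a45, chr19:5877572-5877871, plus strand: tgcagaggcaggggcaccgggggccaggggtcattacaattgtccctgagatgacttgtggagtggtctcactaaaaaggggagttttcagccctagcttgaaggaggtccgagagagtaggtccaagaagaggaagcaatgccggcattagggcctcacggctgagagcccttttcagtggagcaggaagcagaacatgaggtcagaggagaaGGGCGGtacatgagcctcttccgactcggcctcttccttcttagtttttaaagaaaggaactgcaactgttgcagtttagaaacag
Slc25a20, chr9:108661886-108662185, plus strand: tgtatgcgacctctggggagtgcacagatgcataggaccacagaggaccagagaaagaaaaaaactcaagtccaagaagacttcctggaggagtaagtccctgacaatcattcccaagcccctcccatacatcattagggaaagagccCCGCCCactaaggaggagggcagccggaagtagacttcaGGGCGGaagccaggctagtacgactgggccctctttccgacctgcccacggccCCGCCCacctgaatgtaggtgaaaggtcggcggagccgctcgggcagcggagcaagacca
Slc25a34, chr4:141623785-141624084, minus strand: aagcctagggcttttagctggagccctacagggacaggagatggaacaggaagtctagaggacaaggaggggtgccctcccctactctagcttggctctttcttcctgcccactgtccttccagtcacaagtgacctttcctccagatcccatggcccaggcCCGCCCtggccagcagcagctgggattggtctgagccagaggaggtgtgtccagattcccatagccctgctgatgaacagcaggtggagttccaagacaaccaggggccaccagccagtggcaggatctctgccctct
Slc25a13, chr6:6217124-6217423, minus strand: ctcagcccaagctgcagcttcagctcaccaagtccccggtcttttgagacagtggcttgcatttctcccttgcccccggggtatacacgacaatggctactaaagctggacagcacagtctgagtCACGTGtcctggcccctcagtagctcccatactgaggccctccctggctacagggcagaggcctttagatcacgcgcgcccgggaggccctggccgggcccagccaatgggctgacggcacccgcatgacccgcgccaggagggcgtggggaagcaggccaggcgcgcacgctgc
Slc25a33, chr4:149774218-149774517, minus strand: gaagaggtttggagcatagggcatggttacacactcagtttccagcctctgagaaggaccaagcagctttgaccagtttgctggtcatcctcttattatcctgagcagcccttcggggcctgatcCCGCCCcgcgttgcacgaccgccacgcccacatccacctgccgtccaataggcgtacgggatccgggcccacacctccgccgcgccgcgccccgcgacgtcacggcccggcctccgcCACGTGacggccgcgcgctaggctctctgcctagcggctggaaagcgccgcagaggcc

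By level per kilobase, the family spanned from 0.8 RPKM for Slc25a27 to 442 RPKM for Slc25a47, as means over the 6 libraries, with a median of 16.8 RPKM. Above 100 RPKM were 6 carriers, 18 lay between 10 and 100, 10 between 1 and 10, and 3 below 1. The 5 with the highest means were Slc25a47, Slc25a39, Slc25a1, Slc25a3 and Slc25a22. The 5 highest carriers of each library, which need not be the same genes, made up 63.6% ± 0.303 of the family's summed RPKM in refed and 58.8% ± 0.645 in fasted liver (SD, n = 3 each). The family summed to 1702, 1616 and 1784 RPKM in refed 5, 7 and 8, against 2109, 2285 and 2240.0 RPKM in fasted 1, 3 and 4. Every refed sum was below every fasted one. Without Slc25a47 the sums were 1411 ± 5.78 RPKM in refed and 1617 ± 35.3 RPKM in fasted liver (SD, n = 3 each). Di- and tricarboxylate carriers made up 15.4% to 22.0% of the sum in refed and 9.03% to 10.4% in fasted libraries, and amino acid carriers 12.8% to 13.4% in refed and 16.1% to 18.7% in fasted libraries. The di- and tricarboxylate carriers summed to 275 to 355 RPKM in refed and 206 to 229 RPKM in fasted libraries. Slc25a1 alone held 197 to 274 RPKM of this in refed and 108 to 117 RPKM in fasted libraries. No p is given for these sums, since they follow from the choice of members.

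**Figure D2:**
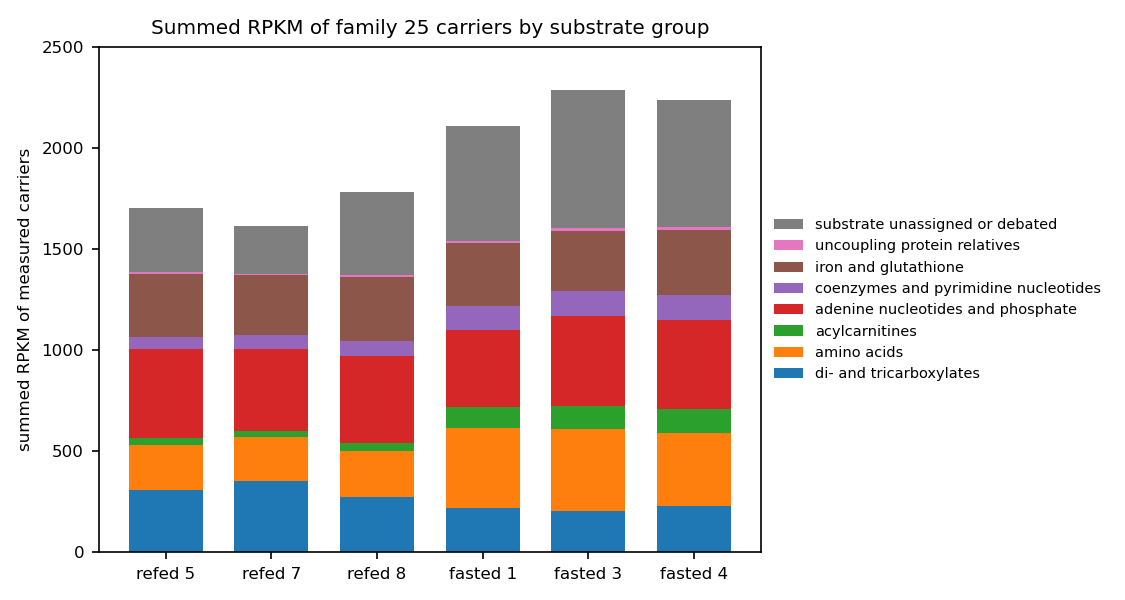
Summed RPKM of the 37 measured carriers in each library, refed libraries on the left and fasted libraries on the right, stacked by substrate group. The refed bars end between 1616 and 1784 RPKM and the fasted bars between 2109 and 2285 RPKM.

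Among the 4 di- and tricarboxylate carriers, 1 was higher, 1 was lower and 2 did not pass. Slc25a1, the citrate carrier, exchanges matrix citrate for cytosolic malate and so delivers acetyl units for fatty acid and sterol synthesis. Its promoter window, shown above, has an E-box, as do windows of the lower carriers Slc25a13, Slc25a15 and Slc25a33 and of Slc25a14, which did not pass. In refed 5, 7 and 8 Slc25a1 was at 223, 274 and 197 RPKM, against 109, 108 and 117 RPKM in fasted 1, 3 and 4. Refed 7 was the highest, and the fasted libraries lay close together. The refed mean of Slc25a1 was 2.07 times the fasted mean (log2 fold change 1.03 ± 0.12 SE, limma adjusted p = 0.00057). Slc25a10, the dicarboxylate carrier, exchanges malate or succinate for phosphate and was lower. Levels of Slc25a10 were 42.7, 39.9 and 42.0 RPKM in refed 5, 7 and 8 and 64.9, 62.0 and 70.1 RPKM in fasted 1, 3 and 4. Slc25a10 thus fell (log2 fold change -0.65 ± 0.08 SE, limma adjusted p = 0.00068). Slc25a11 is the oxoglutarate and malate exchanger of the malate-aspartate shuttle. Its RPKM values were 37.0, 37.2 and 32.3 in refed 5, 7 and 8, against 40.5, 32.0 and 38.0 in fasted 1, 3 and 4. The groups overlapped (log2 fold change -0.05 ± 0.11 SE, limma adjusted p = 0.75). Slc25a21, a carrier of oxodicarboxylates of lysine and tryptophan breakdown, was low at 4.17 ± 0.0831 RPKM in refed and 4.14 ± 0.290 RPKM in fasted liver (SD, n = 3 each) (log2 fold change 0.01 ± 0.08 SE, limma adjusted p = 0.94), and its sign turned with centring (-0.08) and with quantile normalization (-0.09). The deposited gene table places Slc25a1 at chr16:17925304-17928312 (mm9, minus strand), the whole gene.

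In the citrate use list, 5 of 6 genes were higher in refed liver and none lower, against 26.4% and 15.7% of all genes. The higher ones were Acly, which splits exported citrate, Me1, Mdh1, Cs and Idh1. Their refed over fasted ratios ran from 1.19 for Mdh1 to 46.2 for Acly. The ratio of Slc25a1, 2.07, lay between those of Idh1 (1.63) and the citrate synthase gene Cs (3.71). Mdh1 did not pass with libraries centred (adjusted p = 0.17) or quantile normalized (0.086). The mitochondrial pyruvate carrier genes, which belong to another family, were not among the risers. Mpc1 fell (log2 fold change -0.37, limma adjusted p = 0.01), and Mpc2 averaged 123 ± 6.58 RPKM in refed and 149 ± 17 RPKM in fasted liver (SD, n = 3 each; limma adjusted p = 0.075), a difference that passed with centring (adjusted p = 0.02) and quantile normalization (0.035). Of 3 genes of the outer membrane channel, Vdac3 was higher by 0.36 and the others did not pass, and Vdac3 did not pass with centring (adjusted p = 0.072) or quantile normalization (0.081).

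Of 7 measured amino acid carriers, 4 were lower, 1 was higher and 2 did not pass. Over all genes tested 15.7% were lower and 26.4% higher. Slc25a22, a glutamate and proton symporter that brings glutamate into the matrix, was lower. Refed 5, 7 and 8 had 48.0, 50.4 and 47.3 RPKM of Slc25a22, against 162, 171 and 150.4 RPKM in fasted 1, 3 and 4. The groups lay far apart, with little spread within either. This was a fall past the threshold (log2 fold change -1.71 ± 0.08 SE, limma adjusted p = 1.1e-05). Slc25a13, citrin, exports matrix aspartate for cytosolic glutamate and proton, and serves both the urea cycle and the malate-aspartate shuttle. For Slc25a13 the refed libraries 5, 7 and 8 gave 54.4, 43.4 and 52.1 RPKM, and the fasted libraries 1, 3 and 4 gave 98.1, 107 and 96.0 RPKM. The difference passed, with a log2 fold change of -0.995 ± 0.10 SE and a limma adjusted p of 0.00028. Its relative Slc25a12, aralar, is the form of excitable tissues and was far lower in liver. Slc25a12 had 5.59, 6.68 and 6.20 RPKM in refed 5, 7 and 8, against 9.97, 7.49 and 7.26 RPKM in fasted 1, 3 and 4. The refed values were all lower, but the difference did not pass (log2 fold change -0.36 ± 0.13 SE, limma adjusted p = 0.051). It passed with libraries centred (adjusted p = 0.031) or quantile normalized (0.032), and the authors' deposited table lists it among its calls at a false discovery rate of 0.017.

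Slc25a15 carries ornithine into the matrix against citrulline. In refed 5, 7 and 8 Slc25a15 was at 57.0, 55.5 and 60.9 RPKM, against 95.0, 89.6 and 78.9 RPKM in fasted 1, 3 and 4. Slc25a15 fell, with a log2 fold change of -0.59 ± 0.09 SE (limma adjusted p = 0.002). Slc25a29, a carrier of basic amino acids, was near 1 RPKM. Levels of Slc25a29 were 0.603, 0.356 and 0.604 RPKM in refed 5, 7 and 8 and 1.64, 1.34 and 1.70 RPKM in fasted 1, 3 and 4. The log2 fold change of -0.75 ± 0.12 SE (limma adjusted p = 0.0021) is held small by the added 1 RPKM, and the authors' deposited table lists -1.70 from 65 to 93 reads in refed and 205 to 246 reads in fasted libraries. Slc25a38, a glycine carrier needed for heme synthesis, averaged 9.87 ± 1.70 RPKM in refed and 11.2 ± 0.755 RPKM in fasted liver (SD, n = 3 each) (log2 fold change -0.18 ± 0.12 SE, limma adjusted p = 0.26).

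Slc25a44 was the only amino acid carrier that rose. It carries branched-chain amino acids, a role described in brown adipose tissue. Its RPKM values were 48.6, 52.1 and 49.8 in refed 5, 7 and 8, against 15.9, 17.2 and 13.9 in fasted 1, 3 and 4. Every refed library was far above every fasted one. The refed mean of Slc25a44 was 3.20 times the fasted mean (log2 fold change 1.62 ± 0.09 SE, limma adjusted p = 2.2e-05). All 3 listed transcripts gave the same change within 0.011 on the log2 scale. Their levels were nearly the same in each library, at 48.6, 48.7 and 48.4 RPKM in refed 5. They may count the same reads, so they are not separate measurements of the rise. The gene lies at chr3:88214420-88229061 (mm9, minus strand).

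In the urea cycle list, 4 of 6 genes were lower and none higher, against 15.7% lower and 26.4% higher over all genes tested. The lower ones were Cps1, Ass1, Asl and Arg1, with log2 fold changes of -0.73, -0.76, -0.97 and -1.10. Slc25a13 and Slc25a15 stood at -0.995 and -0.59. Otc, the matrix enzyme that uses the ornithine, was at 142 ± 9.87 RPKM in refed and 166 ± 15.2 RPKM in fasted liver and did not pass (SD, n = 3 each; limma adjusted p = 0.1), though it did with centring (adjusted p = 0.042), and not with quantile normalization (0.083). Nags, which makes the activator of Cps1, did not pass either (adjusted p = 0.22), and did with centring (0.039) and quantile normalization (0.03). In the malate-aspartate list Got1 fell (log2 fold change -1.72, limma adjusted p = 0.0015), Mdh1 and Mdh2 rose by 0.25 and 0.30, and Got2 did not pass (adjusted p = 0.21). With libraries centred neither Mdh1 (adjusted p = 0.17) nor Mdh2 (0.056) passed, and with quantile normalization Mdh2 did (0.024) and Mdh1 did not (0.086).

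Slc25a20 imports acylcarnitines for fat oxidation in exchange for free carnitine. Refed 5, 7 and 8 had 36.2, 27.3 and 38.0 RPKM of Slc25a20, against 106, 113 and 118 RPKM in fasted 1, 3 and 4. Refed 7 was the lowest. Slc25a20 thus fell (log2 fold change -1.71 ± 0.13 SE, limma adjusted p = 6.6e-05). Of the 4 carnitine shuttle genes, Cpt1a, Cpt2 and Crat were lower, against 15.7% of all genes tested. Cpt1b, the muscle form, did not pass (limma adjusted p = 0.061), though it did with centring (0.035) and quantile normalization (0.04). The refed mean of Cpt1a, the entry enzyme of the shuttle, was 0.0937 of its fasted mean, while Slc25a20 was at 0.302 and Cpt2, the inner membrane transferase, at 0.512 of the fasted mean.

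**Figure D3:**
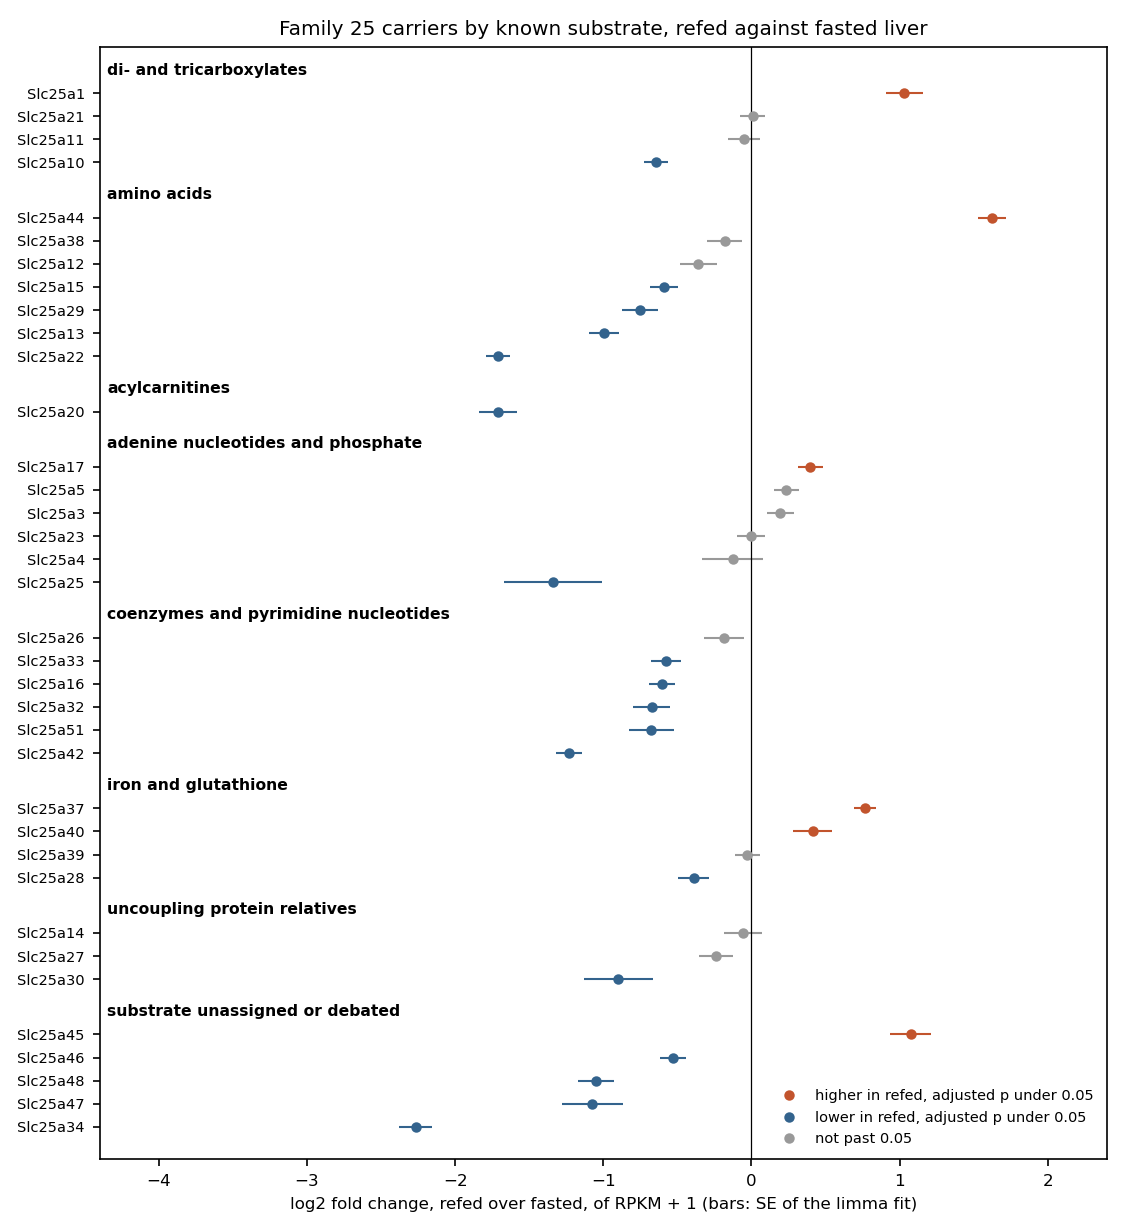
Log2 fold change of RPKM + 1, refed over fasted, on the x axis for 36 of the 37 carriers, grouped by known substrate, with bars for the standard error of the limma fit. Slc25a44 lies farthest right at 1.62 and Slc25a34 farthest left at -2.26, and grey points did not pass.

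The 6 measured carriers of adenine nucleotides and phosphate had 1 higher member, 1 lower and 4 that did not pass, with a median log2 fold change of 0.10, the same as over all genes. Slc25a3 brings in the phosphate and Slc25a5 exchanges the ADP and ATP of ATP synthesis. For Slc25a3 the refed libraries 5, 7 and 8 gave 163, 171 and 160.0 RPKM, and the fasted libraries 1, 3 and 4 gave 135, 138 and 159 RPKM. Slc25a5 had 119, 111 and 107 RPKM in refed 5, 7 and 8, against 90.1, 95.1 and 100.02 RPKM in fasted 1, 3 and 4. In both genes every refed library was above every fasted one, but neither passed (limma adjusted p = 0.12 for Slc25a3 and 0.053 for Slc25a5). With centring the limma adjusted p was 0.32 for Slc25a3 and 0.17 for Slc25a5. Without fasted 4 both passed (0.042 and 0.049), and Slc25a5 passed with the filter at a mean of 2 RPKM (0.049). Slc25a5 reads can come from processed pseudogene copies, so it is uncertain as a single gene. Slc25a4 is the ADP and ATP carrier of heart and muscle. In refed 5, 7 and 8 Slc25a4 was at 2.24, 3.19 and 1.91 RPKM, against 3.02, 1.80 and 3.57 RPKM in fasted 1, 3 and 4. The groups overlapped (log2 fold change -0.13 ± 0.20 SE, limma adjusted p = 0.65). Slc25a17, a peroxisomal carrier of adenine nucleotides and coenzymes, was the member that rose. Levels of Slc25a17 were 29.4, 26.2 and 30.5 RPKM in refed 5, 7 and 8 and 22.2, 21.2 and 21.1 RPKM in fasted 1, 3 and 4. This was a rise past the threshold (log2 fold change 0.40 ± 0.08 SE, limma adjusted p = 0.0071).

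The ATP-Mg and phosphate carriers shift the size of the matrix adenine nucleotide pool and respond to calcium. One of them, Slc25a25, was lower in refed liver and variable. Its RPKM values were 27.4, 17.2 and 37.5 in refed 5, 7 and 8, against 43.0, 93.9 and 76.2 in fasted 1, 3 and 4. Fasted 1 was far below the other fasted libraries and not far above refed 8, the highest refed library. The difference passed, with a log2 fold change of -1.34 ± 0.33 SE and a limma adjusted p of 0.014. The coefficient of variation was 37.2% in refed and 36.4% in fasted liver, against medians of 9.09% and 9.06% over the carriers. The call held without any single library, with adjusted p up to 0.047. Slc25a23 is the other ATP-Mg and phosphate carrier measured. Refed 5, 7 and 8 had 96.6, 80.4 and 90.7 RPKM of Slc25a23, against 88.3, 94.3 and 84.6 RPKM in fasted 1, 3 and 4. The groups overlapped (log2 fold change 0.00 ± 0.10 SE, limma adjusted p = 1).

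Of 7 carriers of coenzymes and pyrimidine nucleotides, 5 were lower and none higher, against 15.7% lower and 26.4% higher over all genes tested. Slc25a42 imports coenzyme A. For Slc25a42 the refed libraries 5, 7 and 8 gave 18.2, 19.4 and 21.5 RPKM, and the fasted libraries 1, 3 and 4 gave 47.7, 48.6 and 46.3 RPKM. Both groups were tight and far apart. Slc25a42 fell, with a log2 fold change of -1.23 ± 0.08 SE (limma adjusted p = 4.5e-05). Slc25a16, linked to coenzyme A in the matrix, was lower too. Slc25a16 had 14.1, 13 and 14.7 RPKM in refed 5, 7 and 8, against 19.9, 23.1 and 22.1 RPKM in fasted 1, 3 and 4. The refed mean of Slc25a16 was 0.642 times the fasted mean (log2 fold change -0.60 ± 0.09 SE, limma adjusted p = 0.0015). Slc25a51, the NAD carrier, is named so in the RPKM table and appears under its older symbol Mcart1 in the authors' deposited table of calls. In refed 5, 7 and 8 Slc25a51 was at 11.5, 11.5 and 16.9 RPKM, against 20.4, 23.9 and 20.3 RPKM in fasted 1, 3 and 4. Refed 8 lay well above the other refed libraries and below every fasted one. Slc25a51 thus fell (log2 fold change -0.68 ± 0.15 SE, limma adjusted p = 0.0089). Slc25a32, a flavin and folate carrier, was lower. Levels of Slc25a32 were 3.61, 4.92 and 3.45 RPKM in refed 5, 7 and 8 and 7.33, 7.17 and 6.24 RPKM in fasted 1, 3 and 4. This was a fall past the threshold (log2 fold change -0.67 ± 0.13 SE, limma adjusted p = 0.0041). Slc25a33, a pyrimidine nucleotide carrier, also fell. Its RPKM values were 7.72, 9.31 and 8.88 in refed 5, 7 and 8, against 12.7, 12.6 and 14.8 in fasted 1, 3 and 4. The difference passed, with a log2 fold change of -0.58 ± 0.10 SE and a limma adjusted p of 0.0031. Slc25a26, which imports S-adenosylmethionine, averaged 3.21 ± 0.165 RPKM in refed and 3.82 ± 0.873 RPKM in fasted liver (SD, n = 3 each) and did not pass (log2 fold change -0.18 ± 0.13 SE, limma adjusted p = 0.3).

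The enzymes that make these coenzymes mostly did not pass. Of 6 coenzyme A and thiamine genes, 1 was lower and none higher, the lower one being Pank1, a pantothenate kinase that begins coenzyme A synthesis (log2 fold change -0.62, limma adjusted p = 0.0012). Of 7 NAD and flavin genes, Nmnat1 was higher and Nadk2, the mitochondrial NAD kinase, was lower, and 5 did not pass.

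Iron and glutathione carriers were split, with 2 higher, 1 lower and 1 not past. The mitoferrins bring iron into mitochondria for heme and iron-sulfur clusters. Mitoferrin 1, Slc25a37, best known from developing red cells, was higher in refed liver. Refed 5, 7 and 8 had 13, 13.1 and 13.9 RPKM of Slc25a37, against 7.67, 7.14 and 7.48 RPKM in fasted 1, 3 and 4. The groups were tight, with coefficients of variation of 3.69% in refed and 3.62% in fasted liver. Slc25a37 rose, with a log2 fold change of 0.77 ± 0.08 SE (limma adjusted p = 0.00023). Erythroid markers, among them Alas2 and the globin genes, had a summed level of 95.2 to 105 RPKM in refed and 62.9 to 123 RPKM in fasted libraries, and 0 of 6 passed with limma, with 0 of 6 at an unadjusted p under 0.05. Mitoferrin 2, Slc25a28, the widely expressed form, was lower. For Slc25a28 the refed libraries 5, 7 and 8 gave 10.4, 8.71 and 9.86 RPKM, and the fasted libraries 1, 3 and 4 gave 14.4, 11.5 and 13.1 RPKM. The refed mean of Slc25a28 was 0.743 times the fasted mean (log2 fold change -0.39 ± 0.11 SE, limma adjusted p = 0.02). That call was lost without refed 7 (adjusted p = 0.065), fasted 1 (0.053) or fasted 4 (0.051).

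Slc25a39, a glutathione importer of the inner membrane, ranked just below Slc25a47 in mean level and had overlapping groups. Slc25a39 had 286, 269 and 293 RPKM in refed 5, 7 and 8, against 286, 277 and 301 RPKM in fasted 1, 3 and 4. The log2 fold change was -0.03 ± 0.08 SE, with a limma adjusted p of 0.82. Its close relative Slc25a40 was about 1 RPKM. In refed 5, 7 and 8 Slc25a40 was at 1.28, 1.44 and 1.10 RPKM, against 0.853, 0.472 and 0.817 RPKM in fasted 1, 3 and 4. It was called higher (log2 fold change 0.41 ± 0.13 SE, limma adjusted p = 0.035), and lost the call with centring (adjusted p = 0.076), with quantile normalization (0.074), and without refed 5 (0.093), refed 7 (0.1) or fasted 3 (0.096). Of 6 glutathione genes only Gsr, glutathione reductase, passed, and it was higher by 0.31. Of 8 iron-sulfur and heme genes, Ppox was higher, Fech and Isca1 were lower, and 5 did not pass.

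Among relatives of the uncoupling proteins, which take their name from proton leak across the inner membrane, 1 of 3, Slc25a30, was lower. Levels of Slc25a30 were 7.79, 4.03 and 8.95 RPKM in refed 5, 7 and 8 and 12.9, 12.3 and 14.5 RPKM in fasted 1, 3 and 4. Refed 7 was the lowest by far. This was a fall past the threshold (log2 fold change -0.90 ± 0.23 SE, limma adjusted p = 0.016), and the call was lost without fasted 4 (adjusted p = 0.053). Slc25a14 averaged 0.942 ± 0.206 RPKM in refed and 1.02 ± 0.189 RPKM in fasted liver (SD, n = 3 each) and did not pass (log2 fold change -0.06 ± 0.13 SE, limma adjusted p = 0.75). Slc25a27 averaged 0.648 ± 0.0541 RPKM in refed and 0.951 ± 0.194 RPKM in fasted liver (SD, n = 3 each) and did not pass (log2 fold change -0.24 ± 0.12 SE, limma adjusted p = 0.13), though it did with centring (adjusted p = 0.044) and quantile normalization (0.03). Ucp2, Mtch1 and Mtch2, family members under other symbols, did not pass by limma either, with 0 of 3 at an unadjusted p under 0.05, though Mtch1 did with quantile normalization (adjusted p = 0.048) and not with centring (0.064). Ucp2 was at 6.65, 5.04 and 6.67 RPKM in refed 5, 7 and 8, against 17.1, 4.18 and 6.2 RPKM in fasted 1, 3 and 4, so fasted 1 stood apart. The Kupffer markers were the highest of the fasted group in the same library, with Cd5l at 28.5, 8.37 and 12.1 RPKM and Vsig4 at 11.9, 3.07 and 6.32 RPKM in fasted 1, 3 and 4. Adgre1 and Marco were slightly higher in refed 8, at 2.15 and 3.39 RPKM, than in fasted 1, at 2.10 and 3.35 RPKM. Globin genes and neutrophil markers were also higher in fasted 1 than in fasted 3 and fasted 4. Hba-a1 was at 9.62, 3.22 and 2.71 RPKM and S100a8 at 2.63, 0.181 and 0.0483 RPKM in fasted 1, 3 and 4. In refed 5, 7 and 8 S100a8 was at 2.04, 0.476 and 1.73 RPKM. The other neutrophil marker, S100a9, was highest in refed 8, at 1.89 RPKM, against 1.19 RPKM in fasted 1. The erythroid marker Alas2, at 50.6, 58.5 and 38.2 RPKM, was highest in fasted 3. The part of these cell types in the Ucp2 values was not tested.

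The 5 carriers listed here as of unassigned or debated substrate were all called, 4 lower and 1 higher. Over all genes tested 42.2% were called, 15.7% lower and 26.4% higher. Slc25a34 showed the strongest fall of the family. Its RPKM values were 0.617, 0.325 and 0.604 in refed 5, 7 and 8, against 5.96, 6.10 and 6.71 in fasted 1, 3 and 4. The refed libraries lay far below the fasted ones, the fasted mean being 12.1 times the refed mean. The difference passed, with a log2 fold change of -2.26 ± 0.11 SE and a limma adjusted p of 1.1e-05. Since 1 was added to each value, this understates the change of so low a gene, and the authors' deposited table lists a log2 fold change of -3.75, with 111, 61 and 92 reads in refed 5, 7 and 8 and 992, 1044 and 1091 reads in fasted 1, 3 and 4. Its position is chr4:141174739-141179736 (mm9, minus strand). Slc25a48 fell at a similar low level. Refed 5, 7 and 8 had 1.42, 1.93 and 1.37 RPKM of Slc25a48, against 4.77, 4.44 and 3.74 RPKM in fasted 1, 3 and 4. Slc25a48 fell, with a log2 fold change of -1.05 ± 0.12 SE (limma adjusted p = 0.00048).

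Slc25a47, a carrier found mainly in liver, was the most abundant member in every fasted library. For Slc25a47 the refed libraries 5, 7 and 8 gave 285, 206 and 378 RPKM, and the fasted libraries 1, 3 and 4 gave 532, 651 and 599.8 RPKM. Refed 8 and refed 7 were far apart, yet all refed libraries were below all fasted ones. The refed mean of Slc25a47 was 0.487 times the fasted mean (log2 fold change -1.07 ± 0.20 SE, limma adjusted p = 0.0044). On mm9 chromosome 12 it lies on the plus strand, and Slc25a29, which also fell, lies on the minus strand, so that their 5′ ends face each other across 15.2 kb. Slc25a46, an outer membrane protein tied to mitochondrial shape, was lower. Slc25a46 had 6.20, 6.65 and 6.71 RPKM in refed 5, 7 and 8, against 9.69, 10.8 and 9.12 RPKM in fasted 1, 3 and 4. Slc25a46 thus fell (log2 fold change -0.53 ± 0.09 SE, limma adjusted p = 0.0025). Slc25a45 was the riser of the group. In refed 5, 7 and 8 Slc25a45 was at 20.9, 25.1 and 23.2 RPKM, against 13, 9.28 and 9.25 RPKM in fasted 1, 3 and 4. Fasted 1 was above the other fasted libraries. This was a rise past the threshold (log2 fold change 1.08 ± 0.14 SE, limma adjusted p = 0.00074).

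Related carriers were then compared within each library as the log2 ratio of RPKM + 1, which largely leaves out differences that scale a whole library. Of 12 pairs listed for this, 8 had both members measured. With 3 libraries against 3 the exact two-sided permutation test cannot go below p = 0.1, and 7 of 8 pairs reached that smallest value (Benjamini-Hochberg adjusted 0.11), so none passes 0.05. For Slc25a37 over Slc25a28 and for Slc25a1 over Slc25a20 this value was fixed in advance. In both, the refed libraries lay wholly above the fasted ones for the first carrier and wholly below for the second. The p of these pairs thus adds nothing to the single carriers. The mitoferrin ratio, Slc25a37 over Slc25a28, was 0.43 ± 0.12 in refed and -0.73 ± 0.10 in fasted liver (SD, n = 3 each, exact p = 0.1), so in refed libraries Slc25a37 had the higher level per length and in fasted libraries Slc25a28 did. Citrate carrier over acylcarnitine carrier, Slc25a1 over Slc25a20, was 2.59, 3.28 and 2.34 in refed 5, 7 and 8, against 0.05, -0.06 and -0.01 in fasted 1, 3 and 4. The 2 transcripts were thus at nearly the same level in each fasted library, and the citrate carrier was 2.74 above on the log2 scale on average in refed liver. Slc25a25 over Slc25a23 was -1.73 ± 0.46 in refed and -0.39 ± 0.55 in fasted liver (SD, n = 3 each). Slc25a13 over Slc25a12 was 2.83 ± 0.27 in refed and 3.46 ± 0.26 in fasted liver, Slc25a42 over Slc25a16 was 0.47 ± 0.11 in refed and 1.10 ± 0.11 in fasted liver, and Slc25a10 over Slc25a11 was 0.22 ± 0.13 in refed and 0.82 ± 0.14 in fasted liver (SD, n = 3 each). Slc25a39 over Slc25a40 was 6.97 ± 0.17 in refed and 7.40 ± 0.14 in fasted liver (SD, n = 3 each). Of the 8 pairs, Slc25a5 over Slc25a4 alone had overlapping groups (exact p = 0.2).

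**Figure D4:**
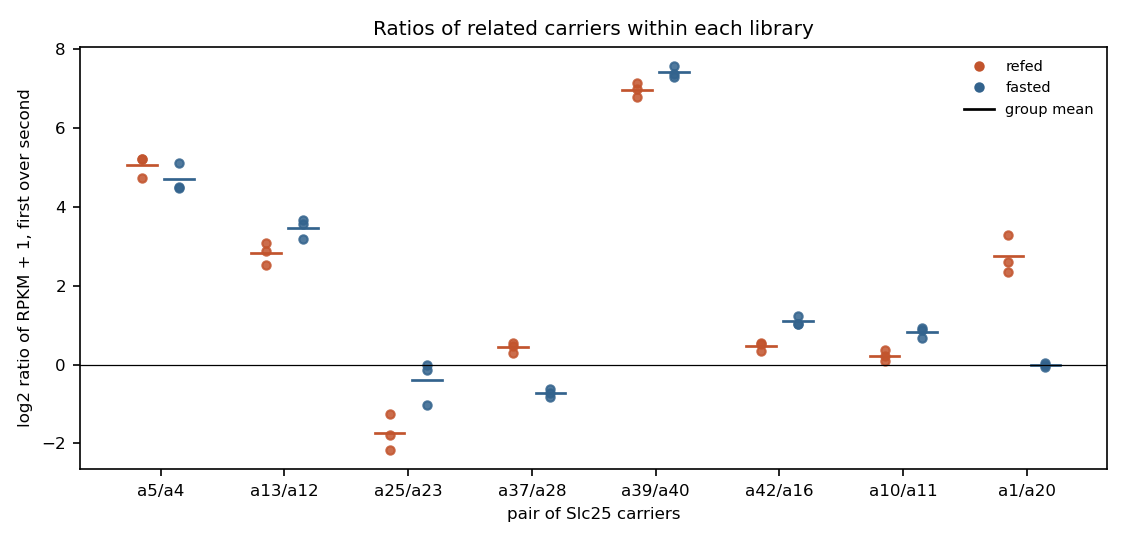
Log2 ratio of RPKM + 1 for each of the 8 pairs of related carriers, first named over second, in each refed library (left of each pair) and each fasted library (right), with short lines for group means. The groups overlap for Slc25a5 over Slc25a4, and the ratio of Slc25a37 to Slc25a28 lies above 0 in refed and below 0 in fasted libraries.

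Of the 24 called carriers, 21 were called whichever library was left out, the others being Slc25a28, Slc25a30 and Slc25a40. Within the refed group, refed 7 was the lowest library for 11 of the 18 lower carriers and the highest for 4 of the 6 higher ones. The authors' deposited table lists 27 of the 37 carriers among its calls, 21 lower and 6 higher, with 61 to 61787 reads a library. These are 73.0% of the carriers, against 40.0% of the 10890 genes tested here, 21.4% lower and 18.5% higher, matched to that table by symbol, synonym or Ensembl ID. Of its 5434 rows, 1081 were not matched to a tested gene. All 24 carriers called here were among the 27 carriers listed there, with the same direction, and the further 3 were Slc25a12, Slc25a27 and Slc25a38. In the 6 carriers with several listed transcripts, the transcripts of a gene differed by at most 0.026 in log2 fold change. Transcripts of a gene may count the same reads, so this closeness adds no separate evidence for a call.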

How the data were processed

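Messenger RNA libraries were made from total RNA of frozen liver, per the labels' protocols, and the group and number of each library come from its title. RPKM values were computed by the authors, 1 row per RefSeq transcript (which total they divided by is not stated). A second table deposited by the authors holds read counts, a log2 fold change and a false discovery rate (an adjusted p-value) for genes they called. It was selected on the outcome, so no count test was run on it, and its counts cover part of each library. Set beside the RPKM values, they put the relative number of reads behind 1 RPKM between 0.941 and 1.14 over the libraries. The submitters' processing notes name FastQC, STAR 2.6.0c, DESeq2 and mm9, with no roles.

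The RPKM table holds 14659 transcripts, 63 of them with no gene name, and the transcript of highest mean stood for its gene. Values were tested as log2(RPKM + 1) with limma 3.58.1 (R 4.3.3; empirical Bayes variances with a trend) wherever the mean reached 0.5 RPKM, adjusted by Benjamini-Hochberg over 10890 genes. Fold changes are on that log2 scale and understate the change of low genes. The step was tested on simulated data with known changes in a small part of the genes and no shift between libraries. That setting differs from these data, where 42.2% of genes were called, so it does not gauge the calls given here. Values in every library are given for called carriers with an absolute log2 fold change of at least 0.5, or with a 1.5-fold ratio and groups that do not overlap, for the 5 with the highest mean, and for partners in pairs. Slc25a17 falls outside this rule and was added after its values were seen. The members and lists were chosen with earlier results of these data known. Features of the proteins were not used here. Alternatives were the pseudocount, the filter, the scaling, the variance trend, every transcript, and each library left out in turn. The values of 1 carrier and of 1 partner gene are not reported here, and both are included in the counts and sums.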

Additional observations from a re-analysis of the deposited data

Results flagged for a closer look

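Slc25a31, an ADP and ATP carrier known from the testis, is in the authors' deposited table of called genes but was not among the carriers tested here. That table lists 24 reads in refed 5, 4 reads in refed 7 and 0 reads in refed 8, against 0 reads in each of fasted 1, 3 and 4. Most of the reads are thus from 1 library, refed 5. The authors' deposited table gives a log2 fold change of 5.47 at a false discovery rate of 0.039.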

How the results depend on the processing

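The number of carriers called lower lay between 17 and 20 and higher between 5 and 8 over the alternatives run, the 8 without fasted 4. Without that library 2742 of all 10890 genes were higher and 1432 lower. The summed RPKM, refed over fasted, was 0.769 and moved to 0.723 with libraries centred on their medians. Of the 24 called carriers, 23 were called under both centring and quantile normalization, Slc25a40 being lost. No called carrier turned in sign under any alternative run. Among carriers that did not pass, the log2 fold change of Slc25a21 turned to -0.078 with centring and -0.086 with quantile normalization. Leaving out each library in turn, the log2 fold change turned in sign at least once for 6 of them, and ranged from -0.33 to 0.021 for Slc25a4, from -0.14 to 0.023 for Slc25a11, from -0.14 to 0.0015 for Slc25a14, from -0.015 to 0.056 for Slc25a21, from -0.059 to 0.072 for Slc25a23, and from -0.054 to 0.0082 for Slc25a39. The cause was not tested. No paired analysis was possible because the groups share no replicate number. Read counts are known here for the genes the authors called, with as few as 61 reads a library for a carrier, so the counting error of the other carriers is not given, and 3 libraries a group cannot reach an exact p under 0.1.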
